A study of Mus musculus with 23 samples.

Results

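WNT3A was added to cells that cannot make their own WNT3 and to cells that can, and the transcriptomes of the 2 lines were compared time by time. The comparison rests on 6 of the 23 arrays of the series: the 3 arrays titled Wnt3-/-_BMP4+Wnt3a, at 12, 24 and 36 h, set against the 3 arrays titled Wnt3+/+_Wnt3a at the same times, with each pair taken at 1 time. The cells were mouse epiblast-like cells (EpiLCs), which stand in culture for the epiblast before gastrulation, made with Activin A and bFGF from male C57BL/6 embryonic stem cells. The knockout line (KO) is Wnt3-/- and the line with intact Wnt3 (WT) is Wnt3+/+. Both carry the BV transgene, a membrane-targeted Venus reporter driven by Blimp1 regulatory elements, and both were kept beforehand in a medium with 2 kinase inhibitors (PD0325901 and CHIR99021) and LIF, and then cultured as floating aggregates in a medium with LIF. By their titles the KO cells of this comparison received BMP4 at 500 ng/ml and WNT3A at 50 ng/ml, and the WT cells received WNT3A at 50 ng/ml. Beside them stand KO and WT cells with BMP4 alone at 500 ng/ml and KO and WT cells without added cytokine. A further group is the KO cells titled WNT3A, at 50 ng/ml by their titles. Each of these has 1 array at 12, 24 and 36 h. Both lines also have 1 array at 0 h, before aggregation. There is 1 line for each genotype, and the 2 cannot be told apart. With 1 array per condition and time the 3 times stand in for replicates.

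WNT3 is a secreted ligand that stabilises beta-catenin in the receiving cell, which then acts with TCF and LEF factors on target genes such as Axin2, Sp5 and Lef1. In the mouse embryo WNT3 from the posterior visceral endoderm and epiblast is needed to form the primitive streak and mesoderm. BMP4 from the extraembryonic ectoderm acts upstream of it and also turns on its own targets, the Id and Msx genes, through SMAD proteins. WNT3A is a related ligand that works through the same pathway, so cells without Wnt3 still have the means to answer it.

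The labels were set against the arrays first. For the KO group the title, the cytokine text and the characteristics name both cytokines, but the array names name WNT3A alone, and under the array names both lines had the same cytokine. Id1, a direct BMP target, read 186, 256 and 1323 at the 3 times in the KO arrays titled BMP4+WNT3A, against 189, 350 and 2077 in WT cells with WNT3A. KO cells with BMP4 alone read 5557, 8192 and 10156, and WT cells with BMP4 alone read 6339, 7383 and 9878. The label of the WT array with BMP4 at 12 h is in doubt too, as described below. Msx2, another BMP target, read 25.6, 20.4 and 24.1 in the KO arrays titled BMP4+WNT3A, against 27.3, 21 and 22.2 in WT cells with WNT3A and 251, 644 and 2150 in WT cells with BMP4. These values go against the title and lie with the array names. Which label is right was not settled, and the group is still called by its title, in full or as the titled KO arrays. Title and array names both name WNT3A, so the comparison is called the one with WNT3A. The Wnt3 probe set read 15.9, 19.8 and 18.1 in the titled KO arrays, against 32.7, 56.9 and 25.6 in WT cells with WNT3A. Which part of Wnt3 was deleted was not stated in those labels, so the probe set may lie outside the deletion and checks nothing. Xist, made from an inactive X chromosome, read 61.4 to 64 in the titled KO arrays and 54.9 to 68.6 in the WT arrays with WNT3A, and the Y-linked gene Uty read 118 to 137 and 108 to 129 in the same arrays. Other Y-linked genes had lower signals in the titled KO arrays at all 3 times, Kdm5d at 46.5 to 57.7 against 56.1 to 83.3 in WT cells with WNT3A, and Eif2s3y at 174 to 202 against 331 to 335.

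A second array went against its label. Of all genes tested, 3 separated the 13 KO arrays from the 7 WT arrays without BMP4 by at least 0.25 log2 units: Frmd4a and Kif18b, higher in KO, and Nxf3, lower in KO. For all 3 of them the array titled WT with BMP4 at 12 h lay inside the KO range, and the WT arrays with BMP4 at 24 and 36 h lay outside it. Frmd4a read 64 on that array, against 8.82 and 3.27 on the WT arrays with BMP4 at 24 and 36 h. The array of the same time nearest to it, by the median absolute difference over genes, was the KO array titled WNT3A, at 0.14 log2 units with 31 genes past 2-fold. The array titled WT with BMP4 at 12 h is in neither group of the comparison with WNT3A. It is in the model fitted to all conditions together, so it enters the standard errors and p-values of that comparison. The model was also fitted with this array alone left out, but the genes that passed there with WNT3A and without cytokine were not counted. Counts that rest on cells with BMP4 alone are given with and without this array, apart from counts at single times.

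The arrays hold 45101 probe sets, and 13256 genes were tested on the log2(signal + 16) scale, which understates changes of dim genes. Array medians lay between 36.8 and 41.4, and precision is limited by how few arrays there are. The ratio of the 3′ to the 5′ probe set of Gapdh, which rises as RNA gets shorter, was 1.21, 1.27 and 1.64 in the titled KO arrays, against 1.53, 4.03 and 1.53 in WT cells with WNT3A at 12, 24 and 36 h. The WT array with WNT3A at 24 h thus had the highest ratio of the series. When the 3 arrays of highest ratio were left out, 0 genes passed in limma in the comparison with WNT3A, and 157 had an unadjusted p under 0.05.

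With WNT3A added, the lines were close to each other. In the limma model across all genes, 2 of 13256 genes passed the threshold of a Benjamini-Hochberg adjusted p under 0.05 between the titled KO arrays and WT cells with WNT3A, which is 0.0151% of the genes tested, and 340 had an unadjusted p under 0.05. Mettl2 was higher and Erdr1 lower in the titled KO arrays. The median absolute difference over genes was 0.08 log2 units, and 11 genes differed by more than 1. For 12841 genes the 95% interval of the difference lay inside 2-fold either way. For the rest the interval is wider than that, so a miss of the threshold does not show that those genes had equal levels. Without cytokine 13 genes passed between KO and WT cells, which is 0.0981%, 4 higher and 9 lower, with 75 differing by more than 1. With BMP4 alone 958 passed, which is 7.23%, 567 higher (4.28%) and 391 lower (2.95%), with 338 differing by more than 1. Without the WT array with BMP4 at 12 h 833 passed with BMP4, and 424 differed by more than 1.

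The closeness of the lines was seen time by time. Between the titled KO array and the WT array with WNT3A, 25 genes lay past 2-fold at 12 h, which is 0.189%, 176 at 24 h, which is 1.33%, and 31 at 36 h, which is 0.234%. Without cytokine the counts between KO and WT cells were 100, 124 and 413, which are 0.754%, 0.935% and 3.12%. With BMP4 alone they were 214, 344 and 1008, which are 1.61%, 2.60% and 7.60%. At 0 h, before any cytokine, 27 genes lay past 2-fold between the lines. The gap between the lines was thus wider at 36 h than at 12 h without cytokine. With WNT3A it was about as narrow at 36 h as at 0 h. With BMP4 the count was also higher at 36 h than at 12 h. The WT array of that 12 h pair reads as KO for the line-marking genes, so its count may not measure a gap between the lines. In the later pairs with BMP4, which do not hold that array, the count rose from 344 at 24 h to 1008 at 36 h. The Gapdh ratio without cytokine was 1.36, 2.68 and 1.21 in KO cells, against 1.36, 1.40 and 2.30 in WT cells at 12, 24 and 36 h, so it was higher in WT cells at the time of the widest gap there, and its part in the count was not tested. Among the arrays of its own time, the WT array with WNT3A was the nearest to the titled KO array at 12 and 36 h, at 0.09 and 0.11 log2 units by the median absolute difference. At 24 h it stood at 0.18 and ranked the fourth, behind the KO array titled WNT3A at 0.12, WT cells with BMP4 at 0.15 and KO cells with BMP4 at 0.17.

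**Figure D1:**
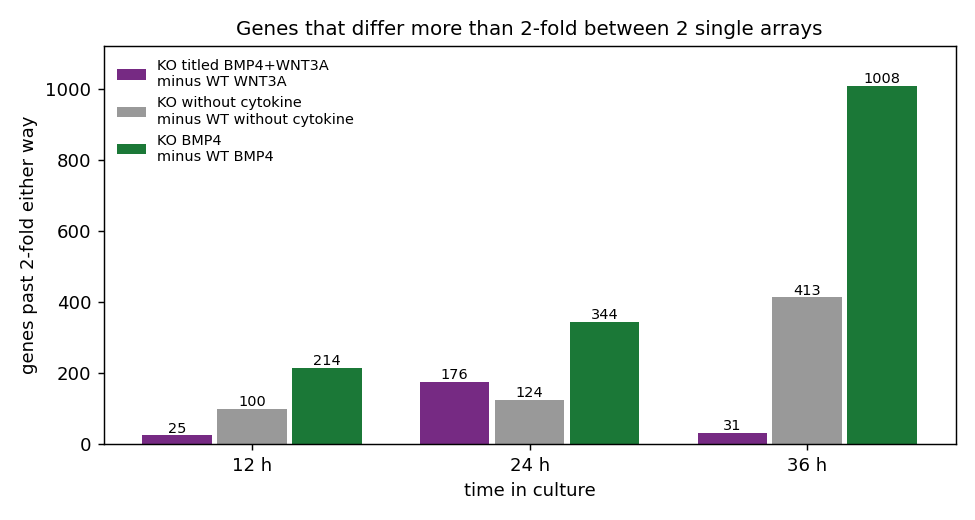
Number of genes past 2-fold either way between 1 KO and 1 WT array (vertical axis, from 0) at 12, 24 and 36 h, for the titled KO arrays and WT cells with WNT3A, for cells without cytokine and for cells with BMP4 alone. The WNT3A pair stands at 25, 176 and 31 genes, and the BMP4 pair at 214, 344 and 1008. The WT array of the BMP4 pair at 12 h reads as KO for the line-marking genes.

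The genes that passed with BMP4 were then followed with WNT3A. Of the 958 genes that passed between KO and WT cells with BMP4, 941 differed by less than 0.5 log2 units between the titled KO arrays and WT cells with WNT3A, and 955 differed by less than they did with BMP4. Without the WT array with BMP4 at 12 h these were 814 and 828 of 833. Of all 13256 genes tested only 119 differed by more than 0.5 with WNT3A, so nearly all genes lay under that limit. The genes were picked for their difference with BMP4, so the counts of 955 and 828 follow in part from that choice. The difference between the 2 line differences was tested directly, in the same fit and after the data were seen. It passed for 101 genes, which is 0.762%, 42 with the KO cells relatively higher with WNT3A and 59 relatively lower. All 101 had passed in the BMP4 comparison. Without the WT array with BMP4 at 12 h 90 genes passed, 72 of them the same genes. Against the cells without cytokine the same kind of difference passed for 0 genes in limma, which is 0%, with 576 at an unadjusted p under 0.05 and a smallest adjusted p of 0.223. The 5 genes of largest relative gain in that comparison, none past the threshold, included Tnfrsf19 at 3.23 ± 0.92, Wnt8a at 3.03 ± 0.85 and Nkx1-2 at 3.09 ± 1.00 log2 units.

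Of the direct WNT targets none passed between the lines with WNT3A. In bulk RNA, fewer cells of a type and less RNA per cell cannot be told apart. Sp5, a zinc finger factor induced by beta-catenin, read 1046, 2150 and 5833 in the titled KO arrays at 12, 24 and 36 h, against 1098, 3641 and 5914 in WT cells with WNT3A. The 2 lines overlapped, with the largest gap at 24 h, and the mean difference was -0.32 ± 0.85 log2 units (standard error of the model, 95% interval from -2.12 to 1.49, limma adjusted p = 1.00). The differences at the 3 times were -0.10, -0.80 and -0.04. The standard error pools the spread over all 7 conditions of the fit, so a miss of the threshold depends on the other conditions too. KO cells without cytokine read 27.3, 26.0 and 24.8 for Sp5, and WT cells without cytokine read 27.5, 181 and 3541. Sp5 was thus high in WT cells at 36 h with no added ligand, and low in KO cells at all 3 times.

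Axin2, a feedback inhibitor in the beta-catenin destruction complex, read 407, 455 and 885 in the titled KO arrays, against 523, 1370 and 949 in WT cells with WNT3A. The titled KO arrays were lower at all 3 times, by 0.37, 1.59 and 0.14 log2 units, and the mean difference of -0.70 ± 0.48 did not pass. Tnfrsf19, a receptor of the TNF family and a WNT target, read 787, 982 and 2419 in the titled KO arrays, against 734, 1409 and 2034 in WT cells with WNT3A. The titled KO arrays were the lower ones at 24 h and not at the other 2 times. Nkx1-2, a homeobox gene of the posterior epiblast, read 1176, 3769 and 6654 in the titled KO arrays, against 1389, 5257 and 5793 in WT cells with WNT3A. Lef1, which encodes a partner of beta-catenin, read 296, 413 and 613 in the titled KO arrays, against 274, 258 and 630 in WT cells with WNT3A. At 24 h alone the lines differed by over 0.5 log2 units for Lef1, and there the titled KO array was the higher one.

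Over the WNT-beta-catenin response list, 19 of 22 genes were tested and none passed between the titled KO arrays and WT cells with WNT3A. Their median difference was -0.09 log2 units, beside -0.02 over all genes tested. Without cytokine the median was -0.44 and none passed. With BMP4 it was -1.23, with 10 lower and 1 higher in KO, beside 2.95% lower and 4.28% higher over all genes, and -1.49 with the same counts without the WT array with BMP4 at 12 h. The difference between the line differences with WNT3A and with BMP4 passed for Tnfrsf19, at 4.92 ± 0.92 log2 units (adjusted p = 0.0195). It was 5.21 for Sp5 and 2.79 for Axin2, which did not pass, with adjusted p of 0.0586 and 0.0743 by limma.

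**Figure D2:**
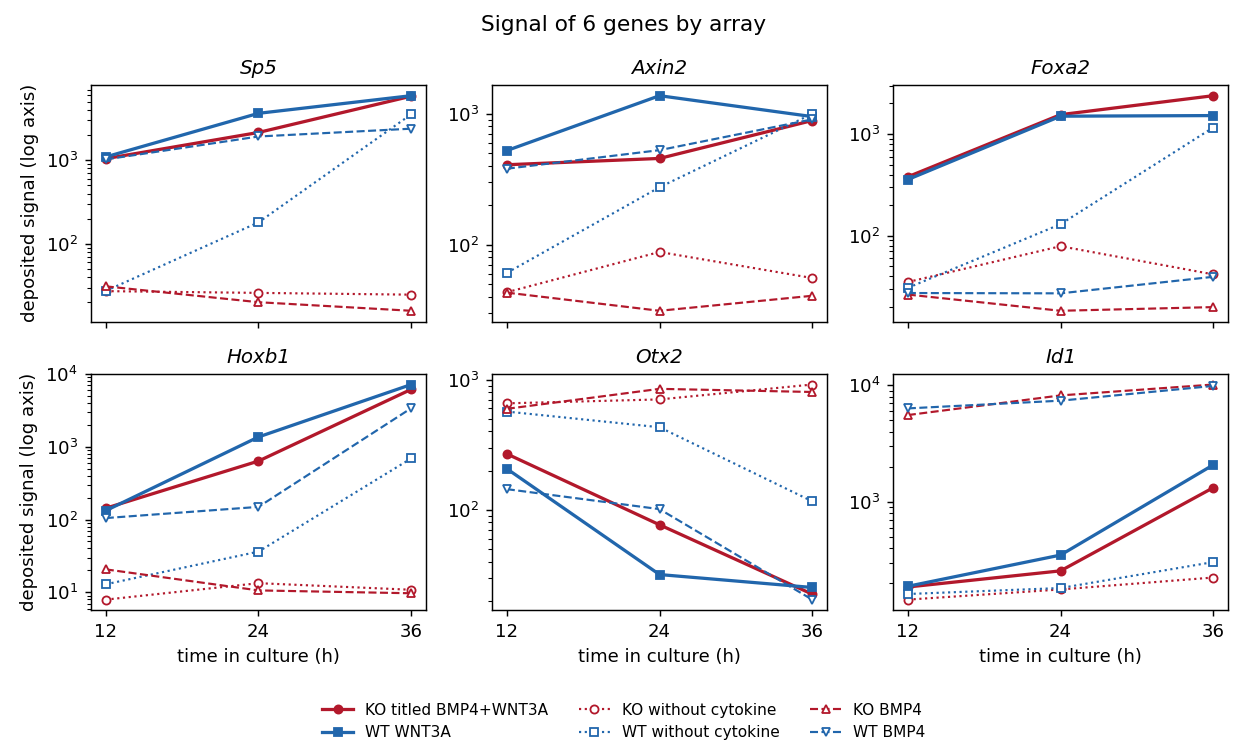
Deposited signal (log axis) against time in culture (h) for Sp5, Axin2, Foxa2, Hoxb1, Otx2 and Id1, 1 point per array, for the titled KO arrays and WT cells with WNT3A (thick lines), cells without cytokine (dotted) and cells with BMP4 (dashed). The 2 thick lines of Sp5 stand at 5833 and 5914 at 36 h, and at 2150 and 3641 at 24 h. Axin2, Hoxb1 and Otx2 also stand apart at 24 h, with Hoxb1 at 635 and 1361. Id1 in both stays below the BMP4 arrays.

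Measured against KO cells without cytokine, 898 genes passed in the titled KO arrays, which is 6.77%, 395 higher (2.98%) and 503 lower (3.79%). Of the 19 WNT response genes 9 rose, Sp5 by 5.79, Nkx1-2 by 5.75 and Tnfrsf19 by 4.89 log2 units among them. In WT cells 64 genes passed with WNT3A against no cytokine, which is 0.483%, 34 higher (0.256%) and 30 lower (0.226%). None of the 19 passed there, with Sp5 at 3.22 ± 0.85, Nkx1-2 at 2.66 and Tnfrsf19 at 1.66 log2 units. The difference between the counts of 9 and none was not tested. Gene by gene, the difference between the KO and WT responses passed for 0 genes in limma. For 8 of the 9 genes that rose, RefSeq promoter windows of build GRCm38.p6 were at hand, 250 bases before to 50 after each start. They were searched for CTTTGAT and CTTTGAA, 7-letter forms of the TCF/LEF core, on both strands (also ATCAAAG and TTCAAAG). Windows of Sp5, Sp8 and Tnfrsf19 hold 1 match each, and no window of the other 5 genes does. Of all 32851 windows 8.65% hold one, and of 10692 tested genes with a window 7.30% have a match in any window. The genes that rose were not tested against that share, so a match is a description and not a site.

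The 3 windows are shown 5′ to 3′ with the match in capitals, because these genes are the ones that rose and hold it. They are chr2:70474673-70474972 (plus strand) for Sp5, chr12:118846983-118847282 (plus strand) for Sp8, and chr14:61037938-61038237 (minus strand) for Tnfrsf19.
Sp5: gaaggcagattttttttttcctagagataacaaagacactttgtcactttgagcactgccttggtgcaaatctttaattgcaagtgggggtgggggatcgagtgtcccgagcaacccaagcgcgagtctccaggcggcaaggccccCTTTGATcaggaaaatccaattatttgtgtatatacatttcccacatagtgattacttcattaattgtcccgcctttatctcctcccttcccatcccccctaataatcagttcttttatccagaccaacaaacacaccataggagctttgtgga
Sp8: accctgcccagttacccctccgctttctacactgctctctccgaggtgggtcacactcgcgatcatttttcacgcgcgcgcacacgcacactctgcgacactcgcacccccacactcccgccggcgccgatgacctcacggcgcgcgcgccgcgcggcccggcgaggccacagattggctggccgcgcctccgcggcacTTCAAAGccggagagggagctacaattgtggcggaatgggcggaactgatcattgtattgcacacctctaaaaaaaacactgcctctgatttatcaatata
Tnfrsf19: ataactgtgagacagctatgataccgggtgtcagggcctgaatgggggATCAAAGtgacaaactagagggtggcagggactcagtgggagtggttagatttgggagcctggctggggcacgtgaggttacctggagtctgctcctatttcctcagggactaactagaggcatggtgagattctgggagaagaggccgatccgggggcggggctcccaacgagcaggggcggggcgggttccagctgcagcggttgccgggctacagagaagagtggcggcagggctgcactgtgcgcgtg
The Sp5 match reads CTTTGAT on the strand of the gene, and the other 2 are matches of the opposite strand. Beside them, Sp8, a paralog of Sp5, differed by -0.07 ± 0.27 log2 units between the titled KO arrays and WT cells with WNT3A.

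Among ligands and receptors of the pathway 24 of 27 genes were tested and none passed, with a median difference of -0.04. Wnt8a, a ligand of the streak, read 1734, 2740 and 3148 in the titled KO arrays, against 1872, 3373 and 3214 in WT cells with WNT3A. KO cells with BMP4 read 49.9, 25.6 and 15.7, and WT cells with BMP4 read 949, 1399 and 1060. The 12 h value of the WT cells with BMP4 comes from the array that reads as KO for the line-marking genes. At 24 and 36 h the lines stood apart with BMP4 and nearly together with WNT3A. The difference between the line differences was 4.55 ± 0.85 (adjusted p = 0.0195). Wnt5b, a ligand of posterior mesoderm, read 639, 904 and 3191 in the titled KO arrays, against 653, 1380 and 3848 in WT cells with WNT3A. Its difference of line differences was 3.57 ± 0.61 (adjusted p = 0.0136). Porcn and Wls, which acylate and export WNT ligands, also passed this test, at 2.16 and 1.21. Without the WT array with BMP4 at 12 h Wls passed at 1.26 and Porcn did not, at 2.10 (limma adjusted p = 0.0904). With BMP4 3 genes of this list were higher in KO and 9 lower, beside 4.28% and 2.95% over all genes, with 4 and 7 without the WT array with BMP4 at 12 h.

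The streak list and the posterior list had the medians farthest from 0 of all 26 lists between the lines with WNT3A, though no gene passed and the lists were not tested against each other. Of 18 streak and nascent mesoderm genes tested the median was -0.31, and of 17 posterior and presomitic genes -0.33. Evx1, a homeobox gene of the posterior streak, read 85.6, 89.3 and 1053 in the titled KO arrays, against 72.5, 229 and 1418 in WT cells with WNT3A. The titled KO arrays were higher at 12 h and lower at 24 and 36 h. Mixl1, a homeobox gene of mesendoderm, read 27.1, 199 and 468 in the titled KO arrays, against 34.8, 362 and 413 in WT cells with WNT3A. Eomes, a T-box factor of the streak, read 750, 855 and 194 in the titled KO arrays, against 639, 416 and 194 in WT cells with WNT3A. It was thus at the same signal in both at 36 h. Mixl1 and Eomes thus lay on opposite sides of their WT signals at 24 h. Fgf8, a ligand of the streak, read 545, 340 and 792 in the titled KO arrays, against 572, 568 and 704 in WT cells with WNT3A.

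The posterior and presomitic list had medians of -0.10, -0.34 and -0.43 at 12, 24 and 36 h, with 0, 3 and 2 genes past 2-fold. Tbx6, Dll1 and Aldh1a2 are shown because they were past 2-fold at 36 h. Tbx6, a T-box factor of presomitic mesoderm, read 24.6, 42.5 and 630 in the titled KO arrays, against 39.4, 39.9 and 1898 in WT cells with WNT3A. Dll1, a Notch ligand of the same tissue, read 249, 167 and 1607 in the titled KO arrays, against 218, 163 and 3327 in WT cells with WNT3A. Aldh1a2, which makes retinoic acid, read 48.8, 49.9 and 324 in the titled KO arrays, against 45.6, 57.3 and 803 in WT cells with WNT3A. These 3 genes reached their highest signals at 36 h in both lines, where the titled KO array was lower by 1.65, 1.11 and 1.34 log2 units, a difference of single arrays. The other list genes past 2-fold at 36 h were Fgf4 and Fgf15, lower by 1.24 and 1.21, and Fgf5, higher by 1.09. In the slope test no gene passed, which is 0% of those tested, with 122 at an unadjusted p under 0.05 and a smallest limma adjusted p of 1. The steepest slope of the selected genes in each direction was that of Ikbke, at -1.79 ± 0.40 log2 units per 12 h, and S1pr1, at 0.87 ± 0.15, neither past the threshold.

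With BMP4 8 streak genes were lower and 1 higher in KO, and 6 posterior genes lower, beside 2.95% lower and 4.28% higher over all genes, or 8, 1 and 4 without the WT array with BMP4 at 12 h. Evx1 read 18.6, 19.3 and 15.9 in KO cells with BMP4, against 685, 1499 and 4040 in WT cells with BMP4. Its difference of line differences, 5.13 ± 0.83 (adjusted p = 0.0104), was the largest by size of the 15 list genes that passed, of which the count was 14 without the WT array with BMP4 at 12 h.

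Of 9 Hox genes tested 3 were past 2-fold at 24 h and 0 at the other times. Hoxb1, a marker of the comparison and a Hox gene of the early posterior axis, read 143, 635 and 6123 in the titled KO arrays, against 133, 1361 and 7132 in WT cells with WNT3A. The lines were alike at 12 h and furthest apart at 24 h, and the mean difference was -0.42 ± 0.95 (95% interval from -2.42 to 1.58). Hoxb2, its neighbour, read 77.2, 228 and 1846 in the titled KO arrays, against 79.3, 714 and 2385 in WT cells with WNT3A. Both Hox genes had their highest signals at 36 h in either line. Cdx1, a caudal homeobox gene and WNT target, read 111, 317 and 2006 in the titled KO arrays, against 150, 744 and 2778 in WT cells with WNT3A. None of the 9 Hox genes passed, and their median difference was -0.12.

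**Figure D3:**
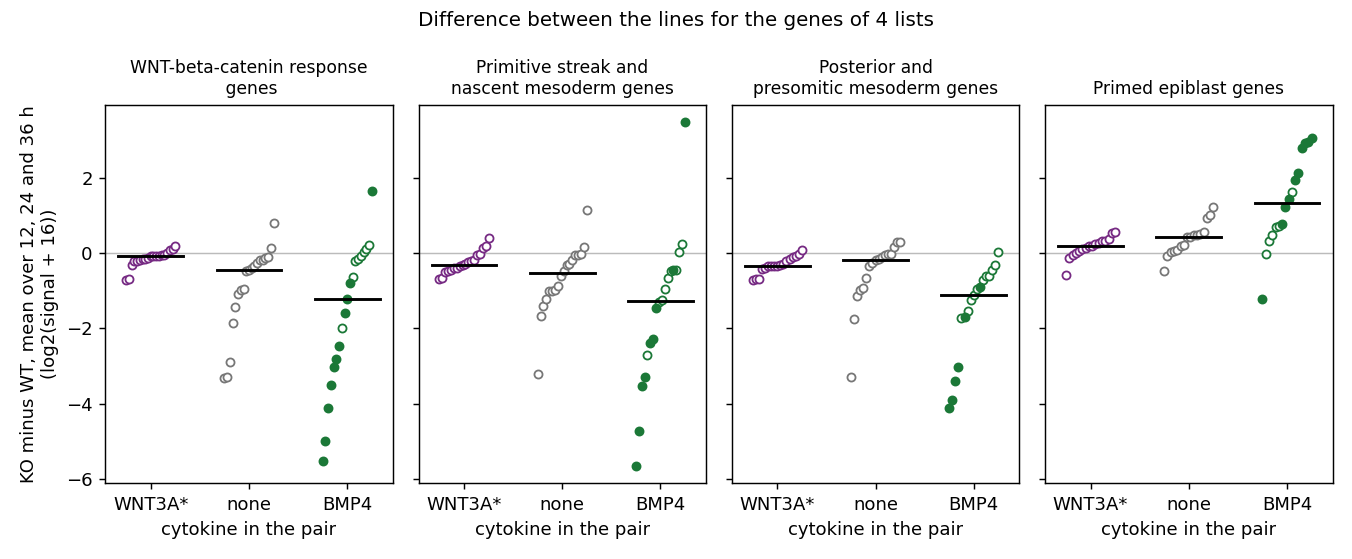
Mean difference of KO minus WT over 12, 24 and 36 h on the log2(signal + 16) scale (vertical axis) for every tested gene of 4 lists, in the pair with WNT3A (the asterisk marks the titled KO arrays), without cytokine and with BMP4. Filled points passed the threshold over all genes and black bars are medians. No point of the WNT3A pairs is filled, and the BMP4 medians reach -1.27 for streak genes and 1.33 for primed epiblast genes.

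Endoderm and axial mesoderm genes were near 0 in the comparison, with a median of 0.02 over 21 genes and none past the threshold. Foxa2, a factor of definitive endoderm and axial mesoderm, read 380, 1552 and 2385 in the titled KO arrays, against 357, 1499 and 1520 in WT cells with WNT3A. The titled KO array was higher at each time, by 0.64 log2 units at 36 h, and the mean difference was 0.25 ± 0.66 (95% interval from -1.15 to 1.65). KO cells with BMP4 read 26.4, 18.3 and 19.8, and WT cells with BMP4 read 27.3, 27.1 and 39.4. Sox17, an endoderm factor, stayed at 59.7 to 106 in the titled KO arrays and at 56.5 to 121 in WT cells with WNT3A. Gsc, an organizer gene, read 40.5, 82.7 and 131 in the titled KO arrays, against 44.0, 217 and 108 in WT cells with WNT3A.

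Genes of the primed epiblast were measured next. Otx2, an anterior epiblast homeobox gene, read 269, 76.6 and 22.5 in the titled KO arrays, against 206, 31.8 and 25.3 in WT cells with WNT3A and 657, 704 and 917 in KO cells without cytokine. Against KO cells without cytokine it fell by 2.96 log2 units in the titled KO arrays. Foxd3, a pluripotency and neural crest factor, read 82.1, 54.2 and 17.5 in the titled KO arrays, against 97.0, 42.8 and 17.4 in WT cells with WNT3A. Pou3f1, a POU factor of the late epiblast, read 1552, 1361 and 644 in the titled KO arrays, against 1687, 1563 and 383 in WT cells with WNT3A. Both had their lowest signals at 36 h in either line. Fgf5, the classic marker of primed epiblast, read 803, 1448 and 498 in the titled KO arrays, against 699, 1082 and 218 in WT cells with WNT3A.

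All 16 genes of the primed epiblast list were tested, none passed between the titled KO arrays and WT cells with WNT3A, and the median was 0.19. With BMP4 9 were higher in KO and 1 lower, beside 4.28% higher and 2.95% lower over all genes, with a median of 1.33, and the counts were the same without the WT array with BMP4 at 12 h. The difference of line differences passed for Foxd3 at -2.95 ± 0.51, Pou3f1 at -2.67 ± 0.46, Fgf15 at -3.50 ± 0.59 and Dnmt3a, a DNA methyltransferase, at -1.17. Dnmt3a did not pass without the WT array with BMP4 at 12 h, at -1.14 (limma adjusted p = 0.0671). Of the 16 genes 7 fell in the titled KO arrays against KO cells without cytokine, beside 3.79% lower over all genes. In WT cells with WNT3A 3 fell against WT cells without it, beside 0.226% lower over all genes. The difference between these counts was not tested.

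Of the general pluripotency genes none passed either. Pou5f1, the core pluripotency factor, read 9281, 8964 and 6472 in the titled KO arrays, against 9153, 9090 and 5914 in WT cells with WNT3A. Nanog, a pluripotency factor that also marks the posterior epiblast, read 3743, 3517 and 1296 in the titled KO arrays, against 3236, 1951 and 739 in WT cells with WNT3A. It was higher in the titled KO arrays at every time, but its difference of 0.59 ± 0.57 did not pass. None of 10 core pluripotency genes and none of 13 naive pluripotency genes passed. Germline determinants had low to moderate signals. Prdm1, which encodes BLIMP1, read 53.1, 90.5 and 108 in the titled KO arrays, against 50.6, 93.1 and 70.0 in WT cells with WNT3A. Prdm14, a second determinant, read 14.7, 12.3 and 50.2 in the titled KO arrays, against 8.40, 9.58 and 45.9 in WT cells with WNT3A. Tfap2c, the third, read 234, 729 and 501 in the titled KO arrays, against 249, 526 and 396 in WT cells with WNT3A. None of 12 germline genes passed, and their median difference was 0.05.

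BMP-SMAD response genes gave a median of -0.10 over 11 genes, with none past the threshold. Msx1, a homeobox target of BMP, read 65.8, 59.3 and 357 in the titled KO arrays, against 71.5, 73.0 and 501 in WT cells with WNT3A, and 488, 820 and 2369 in WT cells with BMP4. Its difference of line differences was 2.25 (adjusted p = 0.0324). Id2 read 84.4, 98.4 and 89.3 in the titled KO arrays, against 76.1, 86.8 and 55.7 in WT cells with WNT3A. For Id1, Id2, Msx1 and Msx2 both the titled KO arrays and the WT arrays with WNT3A thus lay below WT cells with BMP4 at every time. The 12 h array of those BMP4 cells is the one that reads as KO for the line-marking genes. With the KO arrays titled WNT3A in their place, 72 genes passed against WT cells with WNT3A, which is 0.543%. Those arrays share the WT arrays with the comparison described here. Id1 differed by 3.78 log2 units there, and by -0.41 ± 0.43 here.

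Cdkn1a, the cell cycle inhibitor p21 and a p53 target, read 1585, 1370 and 1520 in the titled KO arrays, against 1438, 1808 and 1176 in WT cells with WNT3A. Without cytokine it read 340, 347 and 294 in KO cells, against 803, 699 and 1448 in WT cells, and was one of the 13 genes that passed there, lower by 1.48 in KO. The difference with WNT3A was 0.01 ± 0.23. The difference of line differences between WNT3A and BMP4 was 1.75 and passed.

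In all, 335 of 423 listed genes were tested in 26 lists. Between the titled KO arrays and WT cells with WNT3A none passed, 6 had an unadjusted p under 0.05, and the median absolute difference was 0.11 log2 units, beside 0.08 over all genes. Without cytokine it was 0.21, and with BMP4 it was 0.43. With BMP4 27 list genes were higher and 43 lower in KO, beside 4.28% higher and 2.95% lower over all genes. Without the WT array with BMP4 at 12 h 31 were higher and 38 lower. For 244 of the 335 genes the 95% interval of the difference lay inside 2-fold with WNT3A, beside 12841 of 13256 over all genes. That is a smaller share, so a miss of the threshold says less for the list genes. Of markers of other cell types none passed, among 9 trophoblast, 11 primitive and visceral endoderm, 7 fibroblast and 1 two-cell genes tested, with medians of 0.04, -0.07, -0.02 and 0.07.

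The 2 genes that passed belong to none of the lists. Mettl2, a tRNA methyltransferase gene on chromosome 11, read 1075, 989 and 910 in the titled KO arrays, against 272, 154 and 471 in WT cells with WNT3A. Mettl2 differed by 1.77 ± 0.25 log2 units (limma adjusted p = 0.0170). Its 2 other probe sets differed by -0.08 and -0.14, so the 3 probe sets of the gene disagree. KO cells without cytokine read 955, 534 and 969, against 370, 296 and 290 in WT cells, and at 0 h KO cells read 714 and WT cells 199. Erdr1, a gene of the pseudoautosomal region, read 4040, 2165 and 2574 in the titled KO arrays, against 7538, 6889 and 5113 in WT cells with WNT3A. Erdr1 differed by -1.21 ± 0.17 log2 units (limma adjusted p = 0.0170). Its other probe set differed by -0.40, in the same direction. Without cytokine Erdr1 passed as well, at -1.31. Without the 24 h arrays 0 genes passed (86 at an unadjusted p under 0.05), and without any 1 of the 6 arrays at most 1 gene passed in limma.

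The next genes by size did not pass over all genes. Frmd4a, a scaffold gene of epithelial polarity, read 65.3, 77.7 and 136 in the titled KO arrays, against 6.23, 5.90 and 6.68 in WT cells with WNT3A, a difference of 2.19 ± 0.42 (adjusted p = 0.125). Kif18b, a mitotic kinesin, read 452, 431 and 377 in the titled KO arrays, against 146, 151 and 127 in WT cells with WNT3A. Nxf3, a member of the mRNA export factor family, read 8.40, 16.3 and 21.7 in the titled KO arrays, against 52.7, 52.7 and 51.6 in WT cells with WNT3A. These 3 genes are the line-marking genes, picked because all KO arrays stood apart from the WT arrays without BMP4. The gap between the 2 groups here thus follows from that choice. Cxcl14, a chemokine, read 11.1, 20.7 and 39.1 in the titled KO arrays, against 82.7, 140 and 112 in WT cells with WNT3A, but its other probe set differed by 0.10. The Y-linked gene Eif2s3y read 202, 177 and 174 in the titled KO arrays, against 335, 331 and 335 in WT cells with WNT3A. The others of the 12 highest by the rule of selection lay between 0.44 and 1.04, Sncb, Pdia4 and Depdc1b among them, and the others of the 12 lowest between -0.45 and -0.74, Cdk5rap1, Cyct and Rps6 among them.

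Of these genes some stood apart at 0 h, before any ligand was added, and others did not. At that time Frmd4a differed by 1.89 log2 units between KO and WT cells, Mettl2 by 1.75, Kif18b by 1.61 and Nxf3 by -1.23. Without cytokine the mean differences of Frmd4a, Kif18b and Nxf3 were 2.97, 1.22 and -1.15, beside 2.19, 1.40 and -1.16 with WNT3A. For Cxcl14 the difference was -0.21 without cytokine and 0.48 at 0 h, beside -1.73 with WNT3A. Sap30l, Ttc5 and Hoxa13 of the same selection lay at -0.04, -0.04 and -0.03 at 0 h, beside -0.62, 0.64 and 0.53 with WNT3A.

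**Figure D4:**
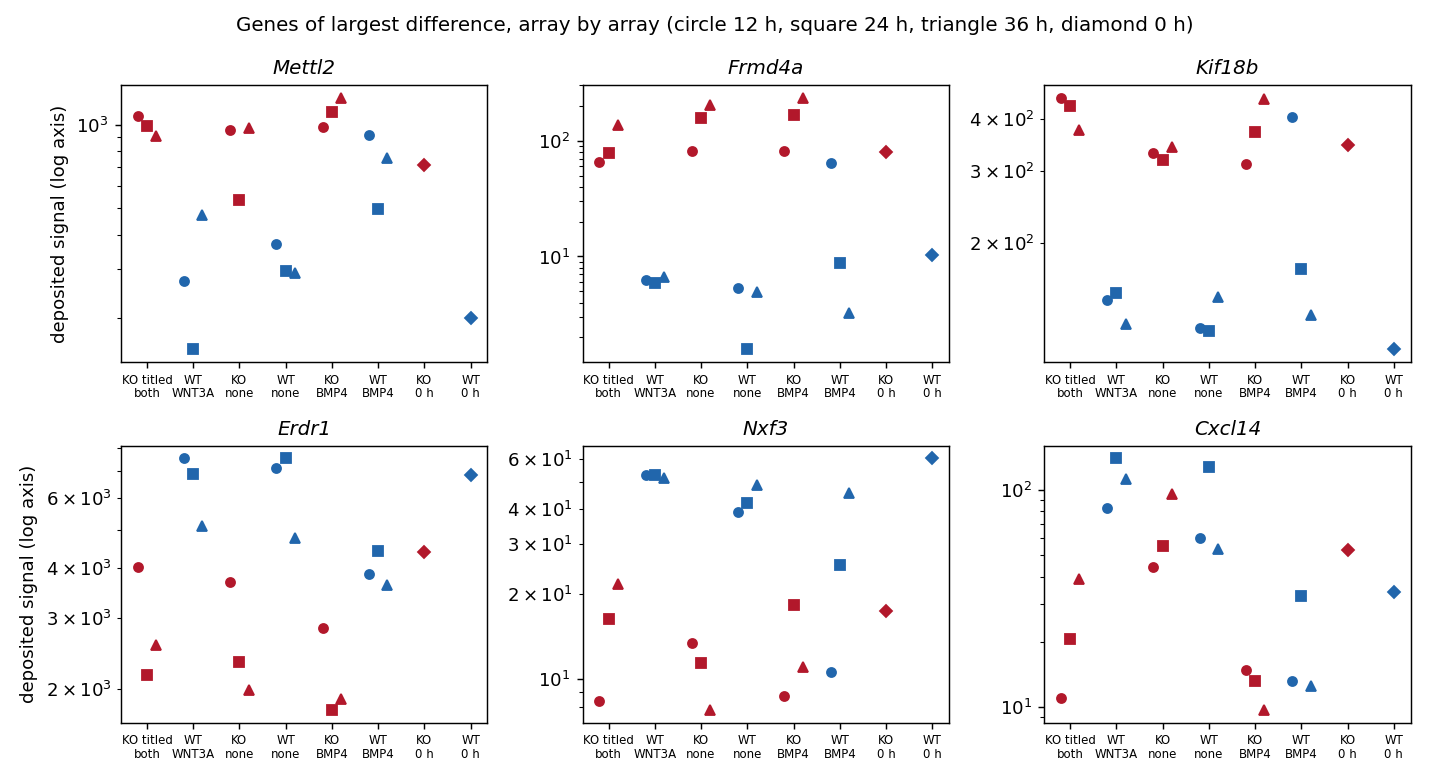
Deposited signal (log axis) of Mettl2, Frmd4a, Kif18b, Erdr1, Nxf3 and Cxcl14 on each array, KO in red and WT in blue, with circles for 12 h, squares for 24 h, triangles for 36 h and diamonds for 0 h. Frmd4a is 65.3 or more on the titled KO arrays and at most 6.68 on the WT arrays with WNT3A, and the WT array with BMP4 at 12 h lies among the KO arrays for Frmd4a, Kif18b and Nxf3.

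Mettl2 and Kif18b lie near Wnt3 on chromosome 11, with 7 and 16 tested genes between them and Wnt3 in the order of the GRCm38.p6 annotation. Closer to it, Nsf, a vesicle fusion ATPase next to Wnt3, differed by -0.30 ± 0.10 and the locus C130046K22Rik by -0.49 ± 0.12, with unadjusted p of 0.00897 and 0.00113 by limma and neither past the threshold. Of the 54 genes at an unadjusted p under 0.01, 21 lay on chromosome 11, which is 38.9%, while 8.28% of tested genes lie there. Of these 21 genes 19 had lower means in the titled KO arrays.

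The difference was small and lay below 0 in each block along chromosome 11. The median difference of its 1098 tested genes was -0.07, -0.11 and -0.07 log2 units at 12, 24 and 36 h between the titled KO arrays and WT cells with WNT3A. In 11 blocks of about 100 genes in chromosome order the mean difference had medians from -0.11 to -0.05. The other pairs of KO and WT arrays gave chromosome 11 medians of -0.03, -0.06 and -0.10 without cytokine, -0.03, -0.10 and -0.04 with BMP4 and -0.05 at 0 h. Chromosome 11 had the lowest median of 20 chromosomes in 9 of these 10 pairs, the exception being BMP4 at 36 h, where the X chromosome was lower. Its distance from the other genes was smallest, at -0.03, in the pair that holds the WT array with BMP4 at 12 h. This pattern was seen in the data and is given with no test, and its cause was not tested.

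**Figure D5:**
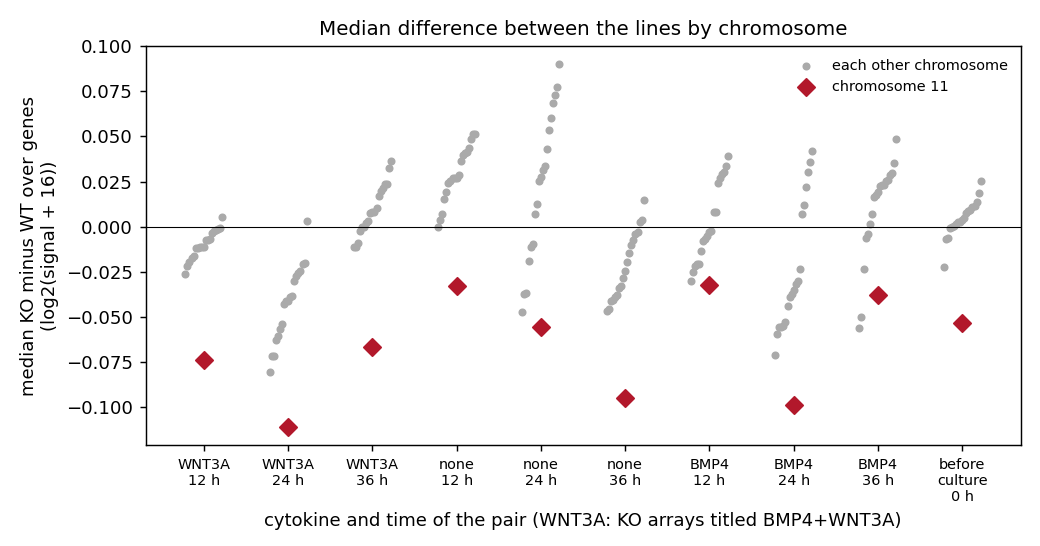
Median of KO minus WT over the tested genes of a chromosome on the log2(signal + 16) scale (vertical axis), for 10 pairs of arrays, with chromosome 11 as red diamonds and the other chromosomes in grey. The diamond is the lowest in 9 of 10 pairs, at -0.07, -0.11 and -0.07 with WNT3A.

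At 24 h, where the WT array had the Gapdh ratio of 4.03, 100 genes were past 2-fold higher in the titled KO array and 76 lower. Of the 100 genes 4 were also past 2-fold in that direction at 12 h and 4 at 36 h, and of the 76 genes 4 and 2. The 76 included 14 list members, among them the WNT targets Axin2 and Cdx1, the streak genes Evx1, Mesp1 and Gsc, and Hoxb1, Hoxb2, Hoxa2, Cdx2 and Dll3. The 100 included 3, Sall2, Fn1 and Ccn1. List genes were thus 18.4% of the genes lower and 3% of the genes higher, and 2.53% of all genes tested. The medians of the 76 genes at 12, 24 and 36 h were -0.18, -1.14 and 0.07 log2 units.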

How the data were processed

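Total RNA of aggregated cells was amplified as cDNA, labelled with biotin and hybridised to Affymetrix mouse expression arrays, 1 per genotype, condition and time, per the labels' protocols. The deposited values are linear intensities with a floor of 1, which 2.93% of them hold; the sources used here do not say how the authors summarised probes. A single gene is named for 34958 of 45101 probe sets, several genes for 932, and no gene for the other 9211. Groups follow the titles. Intensities were transformed as log2(value + 16) and quantile normalized over 23 arrays. Each gene kept its probe set of highest mean if that lay above the array median on at least 3 arrays, which left 13256 genes.

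The fit used limma 3.58.1 in R 4.3.3 (lmFit, eBayes with a trend) on 21 arrays, with 7 conditions and time as an additive block (12 residual degrees of freedom), Benjamini-Hochberg adjustment over all genes and a threshold of 0.05. Slopes came from linear courses with a common curvature (6 residual degrees of freedom). P-values measure how far single arrays depart from parallel courses over time, pooled over all 7 conditions and not over the 2 groups compared alone. Genes whose courses diverge in the other conditions thus have wider intervals. Scripts used Python 3.11.15, pandas 2.3.3, numpy 2.4.6 and matplotlib 3.10.9, and the fit was tested on simulated data.

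Named genes were the 12 highest and 12 lowest in the comparison with one sign at all 3 times (past the threshold, then by size at an unadjusted p under 0.01), the 5 each way for the slope and for the difference of line differences, the list members and the label checks. The comparison, the members and the lists were chosen with earlier results of these data known. The 3 line-marking genes and the contrast between WNT3A and BMP4 cultures were chosen after the values were seen. Alternatives covered normalization, offset, filter, probe set choice, array weights, the block, a 2-fold limit, exchanged KO labels and arrays left out.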

Additional observations from a re-analysis of the deposited data

Results flagged for a closer look

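The difference between KO and WT cells in the WNT3A cultures (titled KO arrays minus WT cells with WNT3A) departed from the difference between KO and WT cells in the BMP4 cultures for 101 genes by a test of the difference itself in limma. Among the named genes these were Tnfrsf19 at 4.92, Wnt8a at 4.55, Wnt5b at 3.57, Evx1 at 5.13, Msx1 at 2.25, Cdkn1a at 1.75, Porcn at 2.16 and Wls at 1.21 log2 units, where KO cells were relatively higher with WNT3A. Pou3f1 at -2.67, Foxd3 at -2.95, Fgf15 at -3.50, Dnmt3a at -1.17 and Cyct, the testis form of cytochrome c, at -1.50 were relatively lower. Without the WT array with BMP4 at 12 h, whose line-marking genes read as in KO cells, the same genes stood at 4.75, 4.40, 3.86, 5.35, 2.42, 1.84, 2.10 and 1.26, and at -3.06, -3.26, -3.50, -1.14 and -1.53. Porcn and Dnmt3a then no longer passed (limma adjusted p = 0.0904 and 0.0671), and the other 11 did. Sox2, a pluripotency and neural factor, passed only without that array, at -2.49 (limma adjusted p = 0.0192). Groups hold 3 arrays, so no test for single outlying arrays was made.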

How the results depend on the processing

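Counts past the threshold are given for the comparison with WNT3A (2 genes), for cells without cytokine (13), with BMP4 (958) and for the difference between WNT3A and BMP4 cultures (101). With the mean of the probe sets of a gene, the first count was 1. With array weights the counts were 10 with WNT3A, 5 without cytokine and 240 for the difference. No time block gave 0 with WNT3A (194 at an unadjusted p under 0.05), 2 without cytokine, 265 with BMP4 and 4 for the difference. An added 2-fold limit gave 6 without cytokine and 243 with BMP4, and no filter on dim genes gave 7 without cytokine. With only the arrays compared, BMP4 gave 117, and WNT3A gave 2 other genes, Frmd4a and Kif18b. Leaving out the 3 arrays with the highest Gapdh ratios, the counts were 0 with WNT3A and 1 without cytokine. Leaving out 1 time or 1 array gave 0 to 2 genes with WNT3A, 0 to 38 without cytokine, 7 to 846 with BMP4 and 0 to 99 for the difference, the low ends without 24 h. Mettl2 passed in 11 of 22 settings and Erdr1 in 10, with no change of sign.

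With exchanged labels, the KO arrays titled WNT3A taken instead, the counts were 72 with WNT3A, 352 for the difference, 8 for the difference against cells without cytokine and 1 for the slope. Foxa2 then read -4.30, and Id1 3.78, Id3 1.10, Id4 2.10, Msx1 2.11 and Msx2 3.15 log2 units, each of opposite sign. Id2 read 4.68, of the same sign as the 0.24 with the labels as given. The cause of these shifts was not tested. Arrays of one time were paired through the time block, and the labels carry no replicate numbers. No detection calls were used here, so signal over background was not tested.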
